A study of Saccharomyces cerevisiae with 4 samples.

Results

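The nuclear genes for the subunits of the respiratory chain and of the mitochondrial ATP synthase were compared between the *sis2Δ* strain and its parent, BY4741. They were taken by systematic identifier from a list of known subunits, 40 genes of the 6692 in the count table. The list holds *NDI1*, 4 genes of complex II, 9 of complex III, both cytochrome c genes, 9 of complex IV (cytochrome c oxidase) and 15 of the ATP synthase, the inhibitor *INH1* included. The *sis2Δ* strain is 1 strain of the haploid *MATa* knockout collection, in which *SIS2* is replaced by a *KanMX* cassette. BY4741 is wild type for *SIS2*, and both strains carry *MATa his3Δ1 leu2Δ0 met15Δ0 ura3Δ0*. As background, Sis2 (also called Hal3) regulates the Ppz phosphatases and is part of the enzyme that makes 4'-phosphopantetheine in coenzyme A synthesis, and strains of the S288C family such as these carry a transposon in *HAP1*, a heme-responsive activator of cytochrome genes, that weakens its product. For each strain 2 independent cultures, A and B, were grown in synthetic complete medium (15 ml, 2% glucose) and harvested in mid-log phase, and polyadenylated RNA was sequenced with stranded paired-end reads.

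In yeast mitochondria electrons enter the chain through complex II, which oxidizes succinate, and through single-protein dehydrogenases such as Ndi1, which take the place of complex I. Coenzyme Q carries them to complex III, cytochrome c carries them on to complex IV, and the proton gradient built by complexes III and IV drives the ATP synthase. Most subunits are nuclear genes and a few are encoded in the mitochondrial genome. During growth on high glucose yeast ferments, and most of these nuclear genes are under glucose repression. The Hap complex activates many of them when glucose runs out.

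The libraries held between 19001619 and 28069619 counts on genes, and the TMM factors that scale them lay between 0.966 and 1.07. Levels are given as CPM, the counts of a gene scaled to a common library size. *SIS2* was at 0.292 and 0.367 CPM in *sis2Δ* A and B, against 147 and 117 CPM in BY4741 A and B. The a-cell genes were called higher in *sis2Δ* for 2 of 4 (*MFA1* and *MFA2*), and of the alpha-cell genes *MF(ALPHA)1* was called higher at low levels of 2.48 and 1.55 CPM in *sis2Δ* against 0.367 and 0.688 CPM in BY4741. Among 10 genes repressed by glucose, *ADH2* was called higher (log2 fold change 0.79) and *MLS1* lower (log2 fold change -1.43) and the other 8 were not called. Over all genes tested 3038 of 5959 lay below 0 and 28.6% had both *sis2Δ* libraries below both BY4741 libraries. Of the 10 glucose-repressed genes, 7 lay below 0, with a median log2 fold change of -0.16, and 5 had both *sis2Δ* libraries below both BY4741 libraries. Their summed level, 3694 and 3998 CPM in *sis2Δ* against 3865 and 3925 CPM in BY4741, was mostly that of *HXK1*, at 3336 and 3594 CPM in *sis2Δ* against 3421 and 3515 CPM in BY4741. The part of these differences in the results below was not tested. Cultures A and B differed beyond counting error in both strains, the chi-square divided by its degrees of freedom being 60.3 between the *sis2Δ* libraries and 20.4 between the BY4741 libraries.

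All 40 genes passed the minimum of 0.5 CPM in 2 libraries, with between 671 (*INH1* in BY4741 B) and 26951 counts (*ATP2* in *sis2Δ* B) per library. Most lay slightly higher in *sis2Δ*, and few passed the test. *QCR6*, *INH1*, *ATP19* and *COX4* rose in *sis2Δ* and *CYC1* fell (edgeR's quasi-likelihood test, adjusted p under 0.05 over 5959 genes). The 4 genes called higher were 10% of the list, beside 2.72% of all genes tested, and the single gene called lower was 2.5%, beside 3.36%. In either direction 12.5% of the list and 6.07% of all genes were called. The log2 fold change was above 0 for 36 of 40 genes (90%), beside 49% of all genes, and its median was 0.15, beside -0.0050 over all genes. An unadjusted p under 0.05 was found for 14 of 40 genes, beside 21% of all genes, and for 13 of 40 (32.5%) with the higher level in *sis2Δ*, beside 10.6%. Both *sis2Δ* libraries lay above both BY4741 libraries for 18 of 40 genes (45%), beside 24.5% of all genes. All 40 together summed to 6825 and 7479 CPM in *sis2Δ* A and B, and to 6319 and 6175 CPM in BY4741 A and B.

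Single libraries set these counts. Without *sis2Δ* B, 23 of 40 genes lay above 0 and the median was 0.09, beside -0.0118 over all genes. Without *sis2Δ* A, 37 lay above 0 and the median was 0.25, beside 0.0096 over all genes. Without BY4741 A or BY4741 B, 32 and 38 genes lay above 0, with medians of 0.0982 and 0.1653. These CPM values are shares of the mRNA counted, so that a higher level here cannot be told apart from a lower level of other transcripts.

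**Figure D1:**
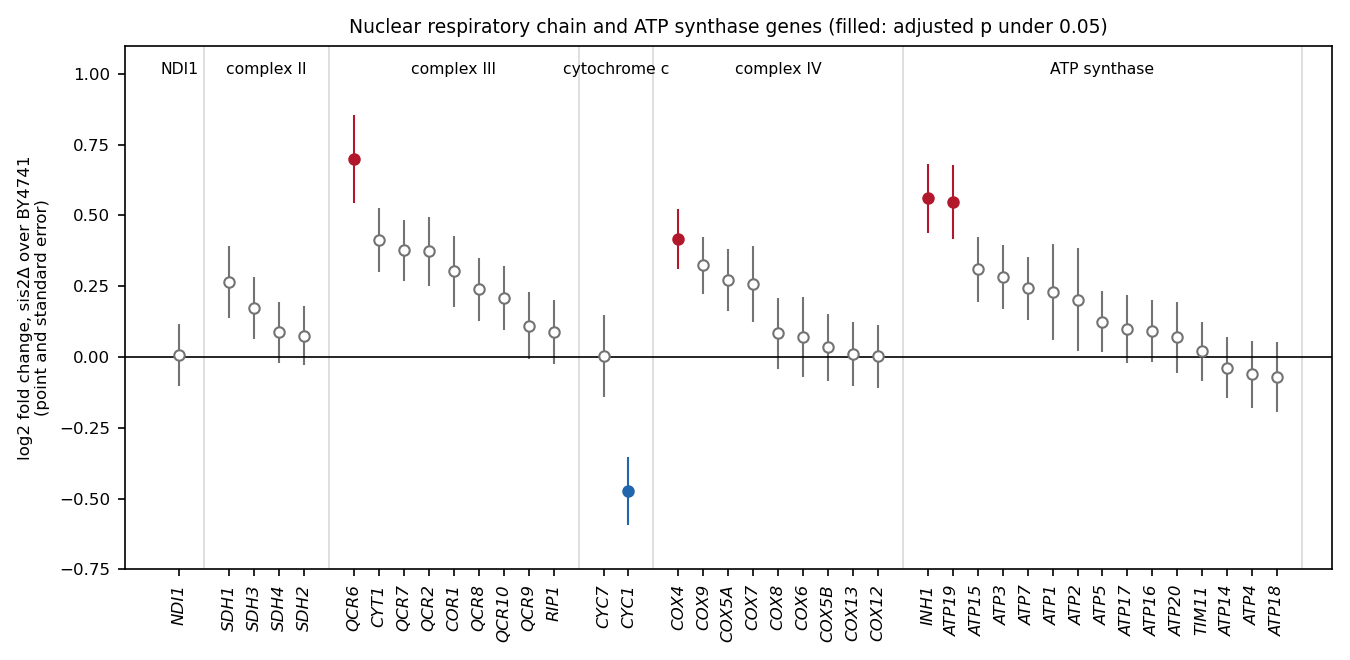
Log2 fold change of each of the 40 subunit genes, *sis2Δ* over BY4741 (vertical axis), with the standard error of the fit as a bar, grouped by complex and ordered by size within each. Filled points passed an adjusted p of 0.05: *QCR6*, *COX4*, *INH1* and *ATP19* above 0 and *CYC1* below; all 9 complex III and all 9 complex IV genes lie above 0, those near 0 included.

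Complex III, the cytochrome bc1 complex, had the highest median log2 fold change of the 4 complexes, 0.30 over its 9 genes. All 9 lay above 0 and for 7 of them both *sis2Δ* libraries were above both BY4741 libraries, beside 24.5% of all genes tested. In summed levels its genes gave 1736 and 1732 CPM in *sis2Δ*, against 1387 and 1333 CPM in BY4741. The *sis2Δ* libraries were nearly alike in this sum, and both lay above those of BY4741. Single genes differed between *sis2Δ* A and B in both directions, with *QCR6* at 313 and 212 CPM and *COR1* at 422 and 483 CPM. The median stayed between 0.26 and 0.35 with any 1 library left out, and 7 to 9 of the genes stayed above 0.

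*QCR6* (YFR033C), at chrVI:224326-224769 on the minus strand of R64, encodes the acidic hinge protein of the complex and was the member with the largest rise. It stood at 313 and 212 CPM in *sis2Δ* A and B, against 168 and 156 CPM in BY4741 A and B. The strains did not overlap, although the *sis2Δ* cultures were far apart from each other. The log2 fold change was 0.70 ± 0.16 (SE; edgeR adjusted p = 0.0206), and it was 0.40 with an adjusted p of 0.0657 when *sis2Δ* A was left out.

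The other subunits of complex III did not pass the threshold. *CYT1*, the gene for cytochrome c1, had a log2 fold change of 0.41 (edgeR adjusted p = 0.0532) and was past the threshold in 4 of 8 other analyses of the same libraries. *QCR7* had 0.38 (adjusted p = 0.0624, past the threshold in 3 of 8). The core proteins *QCR2* and *COR1* had log2 fold changes of 0.37 and 0.30, and the small subunits *QCR8*, *QCR10* and *QCR9* had 0.24, 0.21 and 0.11. Lowest was *RIP1*, the Rieske iron-sulfur protein that passes electrons to cytochrome c1, with 105.5 and 128 CPM in *sis2Δ*, against 108 and 111 CPM in BY4741. Its *sis2Δ* values lay on both sides of those of BY4741 (log2 fold change 0.09 ± 0.11, SE).

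Of complex IV 1 gene was called. *COX4* (YGL187C, chrVII:149704-150171, minus strand), for a zinc-binding subunit needed for the assembly of the enzyme, was at 106 and 110.4 CPM in *sis2Δ* and at 77.1 and 85.3 CPM in BY4741. Both *sis2Δ* cultures were above both BY4741 cultures by more than the spread within either strain. The rise was 0.42 ± 0.11 on the log2 scale (SE; edgeR adjusted p = 0.0362). It was called in each of the 8 other analyses, while the adjusted p was 0.234, 0.0555 and 0.0531 without BY4741 A, BY4741 B and *sis2Δ* A.

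*COX9* was the next in size, with 0.32 (edgeR adjusted p = 0.0840), then *COX5A* with 0.27 and *COX7* with 0.26. *COX8*, *COX6*, *COX5B* and *COX13* had log2 fold changes of 0.08, 0.07, 0.03 and 0.01. *COX12* was at 59.6 and 67.8 CPM in *sis2Δ* and at 63.8 and 63.4 CPM in BY4741, with a log2 fold change of 0.0023 ± 0.11 (SE). The median of the 9 genes was 0.08, and the count above 0 fell to 5 without *sis2Δ* B. In summed level complex IV had 836 and 887 CPM in *sis2Δ* against 752 and 799 CPM in BY4741.

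*COX5A* (YNL052W) and *COX5B* (YIL111W) encode alternative forms of the same subunit, the first known for growth in air and the second for low oxygen. *COX5A* was at 98.0 and 85.1 CPM in *sis2Δ*, against 73.9 and 77.7 CPM in BY4741 (log2 fold change 0.27 ± 0.11, SE; edgeR adjusted p = 0.182). *COX5B* was at 173 and 141 CPM in *sis2Δ*, against 149 and 157 CPM in BY4741, and the strains overlapped. Per coding length *COX5A* made up 35.9% and 37.4% of the pair in *sis2Δ*, a mean of 36.6% ± 1.08 (SD, n = 2), against 32.9% in each BY4741 library. The strains did not overlap in this share, for which no test was run beyond the fits of the separate genes. An exact permutation test of 2 cultures against 2 cannot give a p below 1 in 3. *COX5B* was the more abundant form in all 4 libraries. The coding sequences are identical at 66.4% of 453 aligned bases with no shared stretch over 12 bases.

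Both forms of cytochrome c, which shuttles electrons between complexes III and IV, are on the list. *CYC1*, the iso-1 form that is the main one in respiring cells (YJR048W, chrX:526335-526664, plus strand), fell to 34.8 and 40.7 CPM in *sis2Δ*, against 50.3 and 54.6 CPM in BY4741. It was the only member of 40 (2.5%) with both *sis2Δ* libraries below both BY4741 libraries, beside 28.6% of all genes tested. The log2 fold change was -0.47 ± 0.12 (SE; edgeR adjusted p = 0.0381). Scaling by library size alone gave an adjusted p of 0.0934 and the fit without a filter on low counts 0.0574, and without BY4741 B or *sis2Δ* A it was 0.282 and 0.178.

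*CYC7* (YEL039C), the iso-2 form known for low oxygen, was at 181 and 128 CPM in *sis2Δ* and at 146 and 163 CPM in BY4741, with a log2 fold change of 0.0023 ± 0.15 (SE). The *sis2Δ* values spanned those of BY4741. Per coding length *CYC1* was 16.6% and 24.7% of the pair in *sis2Δ*, a mean of 20.7% ± 5.75 (SD, n = 2), against 26.3% and 25.8% in BY4741, a mean of 26.0% ± 0.371. *CYC7* was thus the more abundant form in every library. The coding sequences of the pair are identical at 77% of 330 aligned bases and share a stretch of 35 bases, shorter than the reads of 100 bases, and no window of 100 bases in any of the 40 genes occurs elsewhere in the genome.

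**Figure D2:**
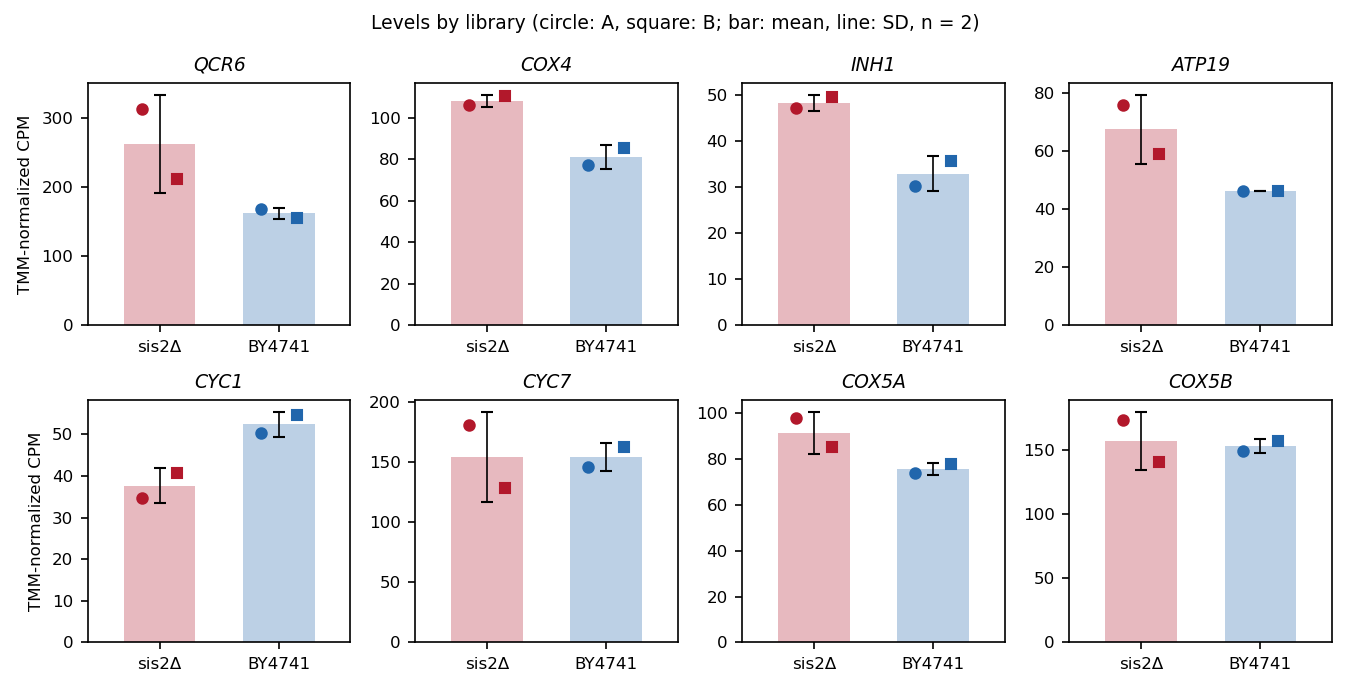
TMM-normalized CPM (vertical axis, from 0) of 8 subunit genes in each library, *sis2Δ* left and BY4741 right, with circles for culture A, squares for culture B, bars for the mean and lines for the SD (n = 2). *QCR6*, *COX4*, *INH1*, *ATP19* and *COX5A* have both *sis2Δ* cultures above both BY4741 cultures, *CYC1* has both below, and *CYC7* and *COX5B* overlap.

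The 15 ATP synthase genes had a median log2 fold change of 0.13, with 12 above 0. Those called were 2 small proteins that are no part of the catalytic core. *INH1* (YDL181W, chrIV:135179-135436, plus strand), the inhibitor that blocks ATP hydrolysis by the enzyme when the proton gradient collapses, was at 47.1 and 49.5 CPM in *sis2Δ*, against 30.2 and 35.5 CPM in BY4741. It rose by 0.56 ± 0.12 on the log2 scale (SE; edgeR adjusted p = 0.0185), more than the spread within either strain, and its adjusted p was 0.127 without BY4741 A. Without *sis2Δ* A the log2 fold change of *INH1* was 0.61.

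*ATP19* (YOL077W-A, chrXV:185438-185644, plus strand) encodes subunit k, a small membrane protein found with the dimer of the enzyme. It was at 75.9 and 59.0 CPM in *sis2Δ*, against 46.1 CPM in each of the BY4741 libraries. Both *sis2Δ* cultures were above BY4741, culture A by the wider margin (log2 fold change 0.55 ± 0.13, SE; edgeR adjusted p = 0.0272). Without *sis2Δ* A the log2 fold change was 0.37 with an adjusted p of 0.134.

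The catalytic core was not called. Its largest subunits, alpha and beta, are encoded by *ATP1* and *ATP2*, which were picked here for their high levels after their values were seen. *ATP1* was at 596 and 807 CPM in *sis2Δ* and at 652 and 544 CPM in BY4741, and *ATP2* at 843 and 1098 CPM in *sis2Δ* and at 927 and 759 CPM in BY4741. Cultures of 1 strain thus differed as much as the strains (log2 fold changes 0.23 ± 0.17 and 0.20 ± 0.18, SE). The central-stalk subunits *ATP15*, *ATP3* and *ATP16* had log2 fold changes of 0.31, 0.28 and 0.09. The peripheral stalk subunits *ATP7*, *ATP5*, *ATP14* and *ATP4* had 0.24, 0.13, -0.04 and -0.06.

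Of the other membrane subunits *ATP17* had a log2 fold change of 0.10, and *ATP20* and *TIM11*, both needed for dimers of the enzyme, had 0.07 and 0.02. *ATP18* was lowest of the 15, with 69.7 and 82.7 CPM in *sis2Δ* and 73.1 and 87.2 CPM in BY4741 (log2 fold change -0.07 ± 0.12, SE). None of these 4 differences was larger than its standard error. In sum the ATP synthase genes gave 3099 and 3719 CPM in *sis2Δ*, against 3102 and 2931 CPM in BY4741. Culture A of *sis2Δ* fell within the range of BY4741 and culture B above it, and without *sis2Δ* B the count above 0 was 6 of 15 and the median -0.0056.

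Complex II gave small differences. *SDH1*, for the flavoprotein that oxidizes succinate, was at 173 and 180 CPM in *sis2Δ*, against 166 and 128 CPM in BY4741 (log2 fold change 0.26 ± 0.13, SE; edgeR adjusted p = 0.252). *SDH2*, for the iron-sulfur subunit, was at 174 and 169 CPM in *sis2Δ* and at 155 and 171 CPM in BY4741 (0.08 ± 0.10). The membrane anchors *SDH3* and *SDH4* had log2 fold changes of 0.17 and 0.09, and none of the 4 was called. *NDI1* (YML120C), for the NADH dehydrogenase on the matrix side, was at 296 and 304 CPM in *sis2Δ*, against 297 and 299 CPM in BY4741. All 4 values lay within a few CPM of each other, and the log2 fold change was 0.0070 ± 0.11 (SE).

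Levels of different genes are comparable only per coding length. On that scale, CPM per kb, the mean level ran from 91.7 in *sis2Δ* and 76.3 in BY4741 for *SDH1* to 632 in *sis2Δ* and 549 in BY4741 for *ATP2*. The median subunit gene stood at the 88.7th percentile of 5682 genes, *ATP2* at the 94.4th and *SDH1* at the 63.6th. Transcript levels of subunits of the same complex were unequal. In complex II the order was *SDH1*, *SDH2*, *SDH3*, *SDH4* from low to high in the means of both strains, a 2.96-fold range in *sis2Δ* and a 3.35-fold range in BY4741, and *SDH3* and *SDH4* overlapped between cultures.

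Complex III ran over 3.91-fold in *sis2Δ*, from *CYT1* with 159 CPM per kb to *QCR7* with 622, and over 4.25-fold in BY4741, from *CYT1* with 119 to *QCR8* with 507. *QCR7* and *QCR8* overlapped between cultures in both strains. In complex IV *COX5A* had the lowest mean, with 198 CPM per kb in *sis2Δ* and 164 in BY4741, and *COX9* the highest, with 571 in *sis2Δ* and 456 in BY4741. Between cultures *COX5A* overlapped with *COX6* in *sis2Δ* and with *COX4* in BY4741. The lowest ATP synthase genes were *ATP20* with 151 CPM per kb in *sis2Δ* and *INH1* with 127 in BY4741. *CYC1* had 114 CPM per kb in *sis2Δ* and 159 in BY4741, and *CYC7* 453 in *sis2Δ* and 452 in BY4741.

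**Figure D3:**
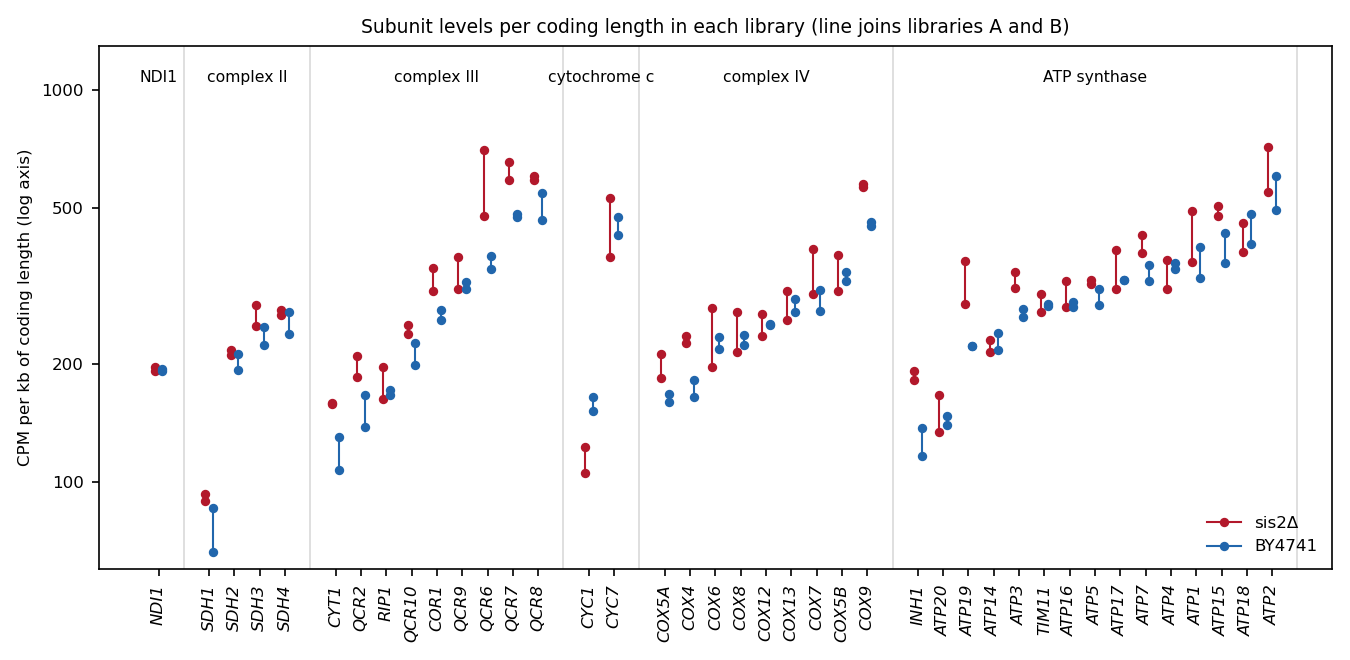
CPM per kb of coding length (vertical log axis) of each subunit gene, with *sis2Δ* in red left of BY4741 in blue and a line joining cultures A and B, ordered within each complex by the BY4741 mean. Levels within a complex range over 2.78-fold to 4.31-fold in BY4741 for complexes with 4 or more genes, which is wider than the difference between strains for any of them.

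The sequences around the genes were read from the R64 genome to see what the members share. TATTTAT is the core of the AU-rich element bound by the mRNA decay factor Cth2, which lowers mRNAs of iron-using proteins when iron is scarce. Within 300 bases after the stop codon, on the sense strand and with overlapping matches counted, it occurs in 25 of the 40 genes (62.5%), beside 1021 of 6003 nuclear protein-coding genes (17%). The members divide by complex. *NDI1*, all 4 genes of complex II, all 9 of complex III, both cytochrome c genes and 8 of 9 complex IV genes (*COX5B* is the exception) hold it, 24 of 25 genes outside the ATP synthase (96%), but 1 of the 15 ATP synthase genes (6.67%), *ATP20*. *SDH1* holds 9 matches and *SDH4* holds 4. The first match begins 31 bases after the stop codon in *QCR6* and 293 bases after it in *RIP1*. Transcript ends were not used, so that a match in this window may lie outside the mRNA. The first match is printed below with 10 bases on each side and TATTTAT in capitals, for the 3 called genes that hold it, for *SDH4* as an example with repeated matches and for the lone ATP synthase gene; they lie at chrVI:224279-224305 (*QCR6*, minus), chrVII:149634-149660 (*COX4*, minus), chrX:526777-526803 (*CYC1*, plus), chrIV:818607-818633 (*SDH4*, plus) and chrXVI:600317-600343 (*ATP20*, plus).
QCR6: cctatattcaTATTTATtctgagtctt
COX4: ccttcttcttTATTTATattttttttt
CYC1: tctaggtcccTATTTATtttttttaat
SDH4: tatttactagTATTTATttattattat
ATP20: atctcaattcTATTTATtttcttttca

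The difference between genes with and without the element was described and not tested. The median log2 fold change was 0.17 for the 25 members that hold it, 24 of them above 0, and 0.13 for the 15 that lack it, 12 of them above 0. Over all tested nuclear genes the medians were 0.0019 with it and -0.01 without it. *CYC1*, which fell, and *QCR6* and *COX4*, which rose, all hold it, and *INH1* and *ATP19* do not. *TIS11*, the gene for Cth2, was itself much lower in *sis2Δ*, at 23.6 and 20.6 CPM against 71.2 and 80.3 CPM in BY4741 (log2 fold change -1.78 ± 0.12, SE; edgeR adjusted p = 4.13e-06). The relation between the level of *TIS11* and those of the members was not tested.

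CCAAT, the core bound by the Hap complex, occurs on either strand within 300 bases before the start codon in 35 of the 40 genes (87.5%), beside 41.8% of 6007 nuclear protein-coding genes. All 15 ATP synthase genes, all 4 of complex II and *NDI1* hold it, as do 7 of 9 in complex III and 8 of 9 in complex IV. It is not in this window of *COX4*, *COR1*, *CYT1*, *CYC1* and *CYC7*. ATTGTT, the core bound by the repressor Rox1, occurs on either strand in 42.5% of the members, beside 34.1% of all genes. The window is printed below from base 300 to base 101 before the start codon for the 3 genes that rose and hold CCAAT, with CCAAT or its complement ATTGG in capitals: *QCR6* (chrVI:224870-225069, minus strand), *INH1* (chrIV:134879-135078, plus strand) and *ATP19* (chrXV:185138-185337, plus strand).
QCR6: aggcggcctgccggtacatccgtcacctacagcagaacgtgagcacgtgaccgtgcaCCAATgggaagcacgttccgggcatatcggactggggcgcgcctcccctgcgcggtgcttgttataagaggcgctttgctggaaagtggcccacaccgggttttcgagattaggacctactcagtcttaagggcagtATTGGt
INH1: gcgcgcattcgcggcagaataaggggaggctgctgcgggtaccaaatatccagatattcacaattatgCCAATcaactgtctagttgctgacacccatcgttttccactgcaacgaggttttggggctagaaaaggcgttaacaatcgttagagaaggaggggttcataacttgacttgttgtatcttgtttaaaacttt
ATP19: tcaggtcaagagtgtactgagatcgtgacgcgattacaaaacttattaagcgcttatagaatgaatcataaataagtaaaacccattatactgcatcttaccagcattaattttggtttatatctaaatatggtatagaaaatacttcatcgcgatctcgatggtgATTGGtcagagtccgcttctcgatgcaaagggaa

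*QCR6* holds 2 matches, the first base of each 243 and 106 bases before the start codon, *INH1* 1 at 232 and *ATP19* 1 at 134. The 35 members with CCAAT had a median log2 fold change of 0.13. The 5 without it had 0.30, and ran from -0.47 (*CYC1*) to 0.42 (*COX4*). Over all tested nuclear genes the medians were -0.0145 with it and -0.0034 without it. The difference was not tested. The levels of *HAP4*, the glucose-controlled subunit of the Hap complex, overlapped between the strains, at 713 and 661 CPM in *sis2Δ* and 793 and 696 CPM in BY4741 (log2 fold change -0.12; edgeR adjusted p = 0.693).

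**Figure D4:**
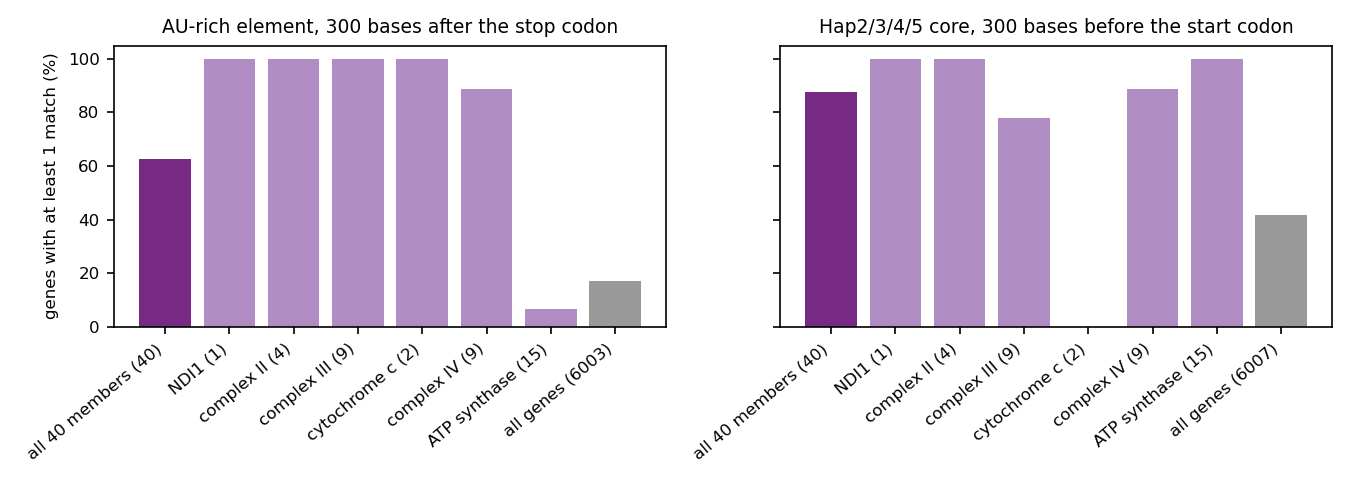
Share of genes in percent (vertical axis) with at least 1 match of TATTTAT within 300 bases after the stop codon (left) and of CCAAT on either strand within 300 bases before the start codon (right), for all 40 subunit genes, each complex and all nuclear protein-coding genes, with the number of genes in parentheses. TATTTAT is in 6.67% of the ATP synthase genes and in 88.9% or more of the genes of each other complex, while CCAAT is in all ATP synthase genes and in neither cytochrome c gene.

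Genes that act with the subunits were set beside them. The 49 genes listed as assembly factors lay lower in *sis2Δ* where the subunits lay higher. Many of their products insert cofactors or fold and join subunits without staying in the complex. Of these 49 genes 7 fell, beside the 3.36% of all genes called lower, none rose and 48 had a log2 fold change below 0, with a median of -0.23, beside 0.15 for the subunits. Both *sis2Δ* libraries were below both BY4741 libraries for 38 of 49, beside 28.6% of all genes tested. Of the complex IV factors 26 of 26 lay below 0 (2 called), of the ATP synthase factors 9 of 9 (2 called), of complex II 5 of 5 (none called), of complex III 6 of 7 (2 called) and of cytochrome c 2 of 2 (1 called). Between 43 and 47 of the factors lay below 0 in each fit with 1 library left out, with medians between -0.3014 and -0.1748. Scaling by library size alone left 2 called lower, beside 128 of all 5959 genes, and 44 below 0. It left 29 with both *sis2Δ* libraries below both BY4741 libraries, beside 1264 of all 5959 genes tested.

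The largest falls among the assembly factors were *COX23*, *COX10* and *MZM1*. *COX23*, for a protein of the intermembrane space in complex IV assembly, was at 13.1 and 13.2 CPM in *sis2Δ*, against 20.4 and 21.6 CPM in BY4741 (log2 fold change -0.67; edgeR adjusted p = 0.0120). *COX10*, for the enzyme that makes heme o on the way to heme a, had -0.56 (adjusted p = 0.0222), and *MZM1*, for a factor of the Rieske protein, had -0.55 (adjusted p = 0.0343). *ATP11* and *ATP12*, chaperones of the *ATP2* and *ATP1* products, *CYC3*, which attaches heme to cytochrome c, and *BCS1*, which moves Rip1 into place, also fell, by 0.49, 0.50, 0.47 and 0.46 on the log2 scale. With library size alone *COX23* and *ATP11* were still called (adjusted p = 0.0330 and 0.0481), while *COX10*, *MZM1*, *ATP12*, *CYC3* and *BCS1* were not (0.0516 to 0.0939), and without a filter on low counts *MZM1* and *CYC3* were not (0.0545 and 0.0627). Each of the 7 lost its call without at least 1 library: *CYC3* without BY4741 A (0.299), the other 6 without BY4741 B (0.0727 for *COX23* to 0.280 for *BCS1*), and all but *COX23* without *sis2Δ* A (0.0589 for *ATP11* to 0.159 for *CYC3*). The subunits that these proteins serve were mostly not called: *ATP1*, *ATP2* and *RIP1* were at 0.23, 0.20 and 0.09, and *CYC1* fell.

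The other dehydrogenases that feed the chain had 1 called gene of 5, beside 3.36% of all genes called lower. It was *DLD1* for D-lactate dehydrogenase, at 342 and 378 CPM in *sis2Δ* against 531 and 492 CPM in BY4741 (log2 fold change -0.51, edgeR adjusted p = 0.0339). Its adjusted p was 0.232, 0.155 and 0.0589 without BY4741 A, BY4741 B and *sis2Δ* A. The rest of these dehydrogenases were not called, with log2 fold changes of 0.33 for *CYB2*, -0.46 for *NDE1*, -0.17 for *NDE2* and -0.14 for *GUT2*. Of the 5 ATP, ADP and phosphate carriers *AAC3* fell by 0.68 on the log2 scale (edgeR adjusted p = 0.0405, called in 3 of 8 other analyses). The other 4 carriers were not called. No gene of the activators of mitochondrial subunit mRNAs (0 of 11), of heme synthesis (0 of 8), of coenzyme Q synthesis (0 of 11) or of the paralogs and small associated proteins (0 of 8) passed the test, beside 6.07% of all genes. Unadjusted p was under 0.05 for 2, 2, 1 and 0 of them, beside 21% of all genes. The smallest p in the first 3 lists was that of *PET111*, *HEM12* and *COQ6* (log2 fold changes -0.32, -0.37 and -0.25), and in the last that of *COX26* (-0.25). Of the 18 regulators *TIS11* was called and *HAP1* had a log2 fold change of -0.0015.

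Of the 7 subunits encoded in the mitochondrial genome 3 passed the minimum level and none was called. The highest, *COX1*, had 3.94 and 3.83 CPM in *sis2Δ* and 2.28 and 2.49 CPM in BY4741 (log2 fold change 0.71; edgeR adjusted p = 0.0974). Libraries made by poly(A) capture hold few reads of these transcripts, and the levels of the mitochondrial partners of the members were too low here to be measured with precision.

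**Figure D5:**
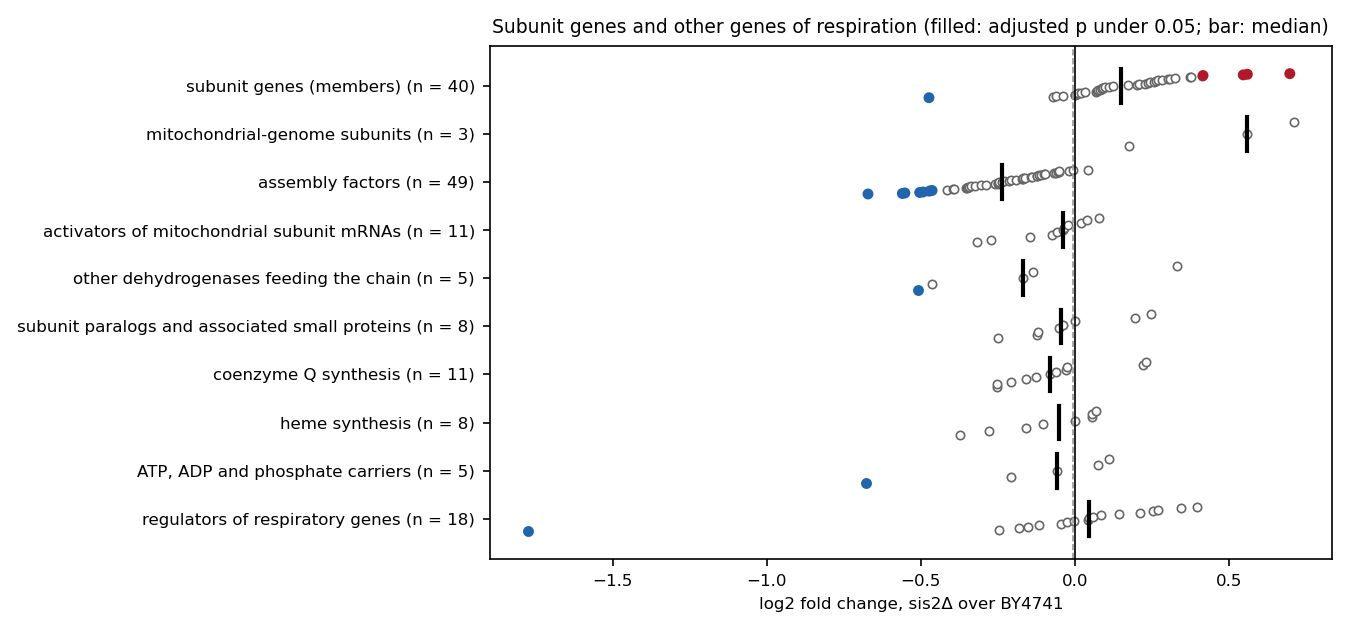
Log2 fold change of each tested gene, *sis2Δ* over BY4741 (horizontal axis), for the subunit genes and 9 lists of related genes, with a bar at each median, a dashed line at the median of all genes and filled points past an adjusted p of 0.05. Most of the 40 subunit genes lie right of 0 and 48 of 49 assembly factors left of it, with *TIS11* far to the left among the regulators.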

How the data were processed

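RNA-seq of 4 libraries (2 *sis2Δ*, 2 BY4741) was used. The authors removed adaptors with Cutadapt 3.7 (minimum length 20, quality cutoff 20), mapped reads to R64 (sacCer3) with STAR 2.7.8a and deposited raw counts per gene from featureCounts 2.0.1, assigned as reverse-stranded and not normalized. Their limma 3.48.0 table of fold changes, mean expression and p-values was not used. No column of another sample was met. The final character in the label of 1 *sis2Δ* sample, a Greek beta, was taken to mean B.

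Libraries were scaled by TMM, and the 5959 genes that reached 0.5 CPM in 2 or more of them were tested by edgeR 4.0.16 (R 4.3.3; quasi-likelihood, Benjamini-Hochberg at 0.05). Alternatives used limma-voom (limma 3.58.1), DESeq2 1.42.0, median-ratio size factors, library size alone, other filters (at least 1 count in all; at least 10 counts in every library), a replicate block, the legacy fit and each library left out in turn, where the lone library of a strain is assumed to vary like the others. The fits were also run on simulated counts, and no outcome of that run is used here. Strains were compared by the labels; 3 counts, the floor, are 0.107 to 0.158 CPM. This floor reflects counting error alone, because duplicates of a molecule could not be recognized.

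Levels per library were printed for members past the threshold, both isoform pairs, *NDI1*, *INH1* and the highest and lowest log2 fold change in each complex; from other lists, at most 3 called genes with the largest change, or that with the smallest p. *ATP11*, *ATP12*, *CYC3*, *BCS1*, *HAP4*, *CYB2*, *NDE1*, *NDE2* and *GUT2* were added after their values were seen. The members and lists were chosen with earlier results of these data known. Coordinates, coding lengths and sequences come from RefSeq R64, in which 6008 of 6692 identifiers and all 40 members were found. Sequences were compared with Biopython 1.88.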

Additional observations from a re-analysis of the deposited data

How the results depend on the processing

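Of 480 recomputed values for single members 428 kept their direction and their side of the threshold, 14 passed it newly, 10 no longer passed it and 28 changed sign. With the replicate letter as a block (replicate block) 10 members were called, 9 of them higher. Over all 5959 genes tested the block raised the calls from 362 to 788, 408 of them higher. The labels do not say whether cultures of the same letter were handled together. The correlation of A minus B deviations between strains was 0.0956 over 5959 genes, and with 2 pairs it cannot settle this. Leaving out 1 library gave between 1 and 8 called members, between 1 and 7 called higher and between 0 and 1 called lower, with a median log2 fold change between 0.0885 and 0.2544; 0 were called lower with library size alone and with no filter beyond 1 count. That scaling moved the median of all genes to 0.05 and that of the members to 0.20. Of the 49 assembly factors 14 were called lower under the block, beside 380 of 5959 genes. The cause of these changes was not tested.

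The members that changed sign had log2 fold changes between -0.07 (*ATP18*) and 0.23 (*ATP1*) over all 4 libraries. Outside the fits that leave out a library the COX12 log2 fold change was -0.0014 under the block, the CYC7 log2 fold change -0.0155 in limma-voom and -0.0154 under the block, and the ATP14 log2 fold change 0.0133 with library size alone. Leaving out 1 library gave ranges of -0.11 to 0.18 for *COX5B*, -0.20 to 0.31 for *COX6*, -0.0939 to 0.25 for *COX8*, -0.0942 to 0.10 for *COX12*, -0.12 to 0.14 for *COX13*, -0.0317 to 0.25 for *QCR9*, -0.0561 to 0.23 for *RIP1*, -0.0046 to 0.21 for *SDH4*, -0.26 to 0.23 for *CYC7*, -0.0056 to 0.44 for *ATP1*, -0.0009 to 0.39 for *ATP2*, -0.19 to 0.0678 for *ATP4*, -0.11 to 0.0579 for *ATP14*, -0.0191 to 0.21 for *ATP16*, -0.0754 to 0.26 for *ATP17*, -0.20 to 0.0811 for *ATP18*, -0.0973 to 0.23 for *ATP20*, -0.0578 to 0.10 for *TIM11* and -0.0116 to 0.0371 for *NDI1*. The standard errors of the 40 log2 fold changes lay between 0.10 (*COX9*) and 0.18 (*ATP2*), and differences within these errors were not resolved with 2 cultures a strain.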
